A study of Mus musculus with 6 samples.

Results

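Haemoglobin and red cell genes were followed in punches of rd1/rd1 mouse retina as a measure of the blood held in the dissected tissue. The genes were Hbb-bs and Hbb-bt, the adult beta globin genes of a common mouse haplotype, Hba-a1 and Hba-a2, the adult alpha globin genes, Alas2, the erythroid form of the first enzyme of haem synthesis, and Slc4a1, the band 3 anion exchanger of the red cell membrane. Members were all probes whose single gene symbol in the array annotation was one of these 6 genes. They came to 13 of the 45281 probes on the array and stood for 5 of the 6 genes: 6 probes were named for Hbb-bs, 4 for Hbb-bt and 1 each for Hba-a1, Alas2 and Slc4a1. The annotation named none for Hba-a2, which was not analysed here.

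RNA was measured on Illumina single-colour bead arrays in 3 samples from mice aged 2 months and 3 samples from mice aged 8 months. All carried rd1/rd1 (written rd/rd in the sample titles), a mutation of the rod phosphodiesterase gene Pde6b that causes loss of rods and then of cones, were untreated and came from no further named strain; no wild-type group was part of the comparison. Each sample pooled 3 to 6 punches, 1.5 mm across, cut from the central retina in cold buffered saline, and the number of animals behind a pool is not given in the sources used here. No step that removes blood, such as perfusion, is named in the labels used here. Retinal identity was borne out by the 13 measured genes of the neural retina list, whose mean level was between 10.70 and 10.78 on the deposited log2 scale in every sample. That scale ran from 6.98 to 14.5 with a median of 7.19 on every array, and values close to the median are close to background. A probe was tested where it exceeded the median of its array on at least 3 arrays, which kept 22458 probes and 12 of the 13 members. Precision is limited by having only 3 arrays at each age, and a p-value speaks to the variation among these pools alone. Replicate 2 at 2 months stood apart: all 13 member probes were highest in it, and the haemoglobin results and the muscle and pigment lists are given with and without it. The titles number the 2 month samples 1, 2 and 3, as used here, while the sample descriptions number the same samples 1, 1 and 2. The design text calls the 3 samples of each age independent.

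Adult haemoglobin is a tetramer of alpha and beta globin chains with a haem group in each chain, and it carries oxygen in red cells. Red cell precursors in the marrow make globin RNA in very large amounts, and the youngest circulating red cells, the reticulocytes, still carry it after the nucleus is lost. In a retina whose vessels were not cleared, globin RNA therefore arrives with the blood, although low levels of globin RNA have also been described in neurons and other non-erythroid cells. Globin promoters hold sites for the erythroid factors GATA1, which binds GATA sequences, and KLF1, which binds CACCC sequences.

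The sequences before the start sites of the 3 globin genes that carried the signal are shown because their probes gave parallel values. Each run is the 250 bases before the RefSeq start, 5′ to 3′ on the strand of the gene, in build GRCm38.p6, with capitals for GATAA, the letters CACCC, the letters CCAAT and also ATATAA, on either strand.
Hbb-bs, chr7:103827929-103828178, minus strand: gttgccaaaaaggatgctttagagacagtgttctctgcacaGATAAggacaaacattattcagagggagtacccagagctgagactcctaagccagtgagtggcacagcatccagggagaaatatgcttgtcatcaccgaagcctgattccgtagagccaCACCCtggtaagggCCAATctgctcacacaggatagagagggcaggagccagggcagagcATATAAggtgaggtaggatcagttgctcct
Hbb-bt, chr7:103813924-103814173, minus strand: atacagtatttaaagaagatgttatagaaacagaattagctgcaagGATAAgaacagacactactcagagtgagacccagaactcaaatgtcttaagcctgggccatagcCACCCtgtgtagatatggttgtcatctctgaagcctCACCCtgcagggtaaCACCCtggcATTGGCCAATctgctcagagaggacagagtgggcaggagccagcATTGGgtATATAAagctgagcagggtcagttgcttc
Hba-a1, chr11:32283422-32283671, plus strand: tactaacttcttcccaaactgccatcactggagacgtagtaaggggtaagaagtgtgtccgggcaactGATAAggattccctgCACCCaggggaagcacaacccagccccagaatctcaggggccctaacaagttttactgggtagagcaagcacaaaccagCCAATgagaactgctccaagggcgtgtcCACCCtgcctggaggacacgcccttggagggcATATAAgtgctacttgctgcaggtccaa
The window of Hba-a2 on chromosome 11 matched that of Hba-a1 at 247 of 247 aligned bases, shifted by the place of the annotated start, while those of Hbb-bs and Hbb-bt matched at 178 of 243 aligned bases, or 73.3%. GATAA occurred in 22.6% of 32851 RefSeq promoter windows of this length, CACCC in 52.0%, CCAAT in 33.8% and ATATAA in 9.1%, and all 4 together in 0.466%. All 4 were present in the windows of the 4 globin genes. In Hbb-bs the first base of GATAA lay at −209 from the start, that of CACCC at −90, that of CCAAT at −76 and that of ATATAA at −30. The motifs overlapped each other in none of the 3 printed windows. They were chosen because they are known from globin promoters, so a match is a description of these letters and not evidence of binding. Alas2, on chromosome X, is shown beside them as an erythroid gene whose probe stayed at background at both ages. A link between these letters and the array values was not tested.
Alas2, chrX:150547167-150547416, plus strand: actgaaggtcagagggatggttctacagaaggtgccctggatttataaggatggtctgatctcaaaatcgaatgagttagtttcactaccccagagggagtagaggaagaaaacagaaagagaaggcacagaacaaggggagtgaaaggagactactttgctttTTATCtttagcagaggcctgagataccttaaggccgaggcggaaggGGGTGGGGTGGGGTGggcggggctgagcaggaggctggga
Its window held GATAA once and CACCC 3 times, all on the opposite strand, and neither CCAAT nor ATATAA.

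Beta globin was higher in all 3 samples at 2 months than in all 3 at 8 months at 9 of its 10 probes, by 2.67-fold to 3.23-fold at the 8 bright ones. Of all kept probes 6.61% were separated in this direction and 7.08% in the other. The 10 probes measure 2 genes that share much of their sequence, so they are not independent. Alpha globin was 2.80-fold higher at its probe, while the probes of Alas2 and Slc4a1 stayed at background at both ages. None of the differences passed an adjusted p of 0.05 with all 6 samples (limma, Benjamini-Hochberg over 22458 probes), where 0.0134% of all kept probes were called lower at 8 months and 0.0356% higher.

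Hbb-bs ILMN_2545963 read 11.17, 12.38 and 10.87 in replicates 1, 2 and 3 at 2 months and 9.83, 9.72 and 9.78 at 8 months. The ages did not overlap, replicate 2 was the highest at 2 months, and the 3 samples at 8 months lay within 0.106 of each other. The mean went from 11.47 ± 0.798 to 9.78 ± 0.0530 (SD, n = 3 per age), a change of −1.69 (moderated SE 0.346, limma adjusted p = 0.181) or 3.23-fold. For Hbb-bt ILMN_1236718 the values were 10.95, 12.30 and 10.72 at 2 months and 9.55, 9.69 and 9.66 at 8 months. Again the lowest 2 month sample lay above the highest 8 month sample, here by 1.03, with a change of −1.69 (SE 0.372, limma adjusted p = 0.202). Hba-a1 ILMN_1212702 read 10.36, 11.62 and 10.44 at 2 months and 9.20, 9.38 and 9.38 at 8 months. The gap between the ages was 0.980 and the change −1.48 (SE 0.308, limma adjusted p = 0.185). The 2 alpha globin genes code for nearly the same RNA, so this probe may also read Hba-a2, which was not checked here.

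At 4 other probes of Hbb-bs the ages did not overlap either. ILMN_1229203, ILMN_1244316, ILMN_1223244 and ILMN_1255462 had means of 11.22, 11.00, 10.98 and 10.91 at 2 months and of 9.53, 9.42, 9.34 and 9.39 at 8 months. Their changes were −1.69, −1.58, −1.65 and −1.52. The dimmer Hbb-bs probe, ILMN_2544056, read 8.10, 8.81 and 7.79 at 2 months against 7.48, 7.47 and 7.69 at 8 months. The lowest 2 month sample was only 0.0926 above the highest 8 month sample there, and the change was −0.69 (SE 0.235, limma adjusted p = 0.424).

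Among the other Hbb-bt probes, ILMN_1239117 read 10.32, 11.36 and 10.14 at 2 months against 9.20, 9.00 and 9.00 at 8 months, a change of −1.54 (SE 0.290, limma adjusted p = 0.157). ILMN_1216452 read 10.23, 11.12 and 9.66 against 8.86, 8.98 and 8.92, a change of −1.42 (SE 0.320). ILMN_1235372 was close to background, at 7.37, 7.78 and 7.27 against 7.25, 7.38 and 7.21. It was the only haemoglobin probe whose ages overlapped, with a change of −0.20 (SE 0.127, limma adjusted p = 0.740). The 4 probes of this gene were annotated to the same transcript, so they disagree about the change of 1 RNA, from −1.69 to −0.20. The 2 haemoglobin probes with the smallest changes were the 2 dimmest.

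Alas2 ILMN_2675874 read 7.13, 7.35 and 7.20 at 2 months and 7.18, 7.07 and 7.15 at 8 months. It did not pass the filter, its ages overlapped, and with no filter its change was −0.09 (SE 0.0607, limma adjusted p = 0.878). Slc4a1 ILMN_1227675 read 7.21, 7.25 and 7.21 against 7.20, 7.18 and 7.18. Its ages did not overlap, but the gap was 0.00907 and the change −0.03 (SE 0.0395, limma adjusted p = 0.894), at the level of the array median. For these erythroid genes the arrays gave no measurable level at either age, so whether they followed globin could not be read.

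**Figure D1:**
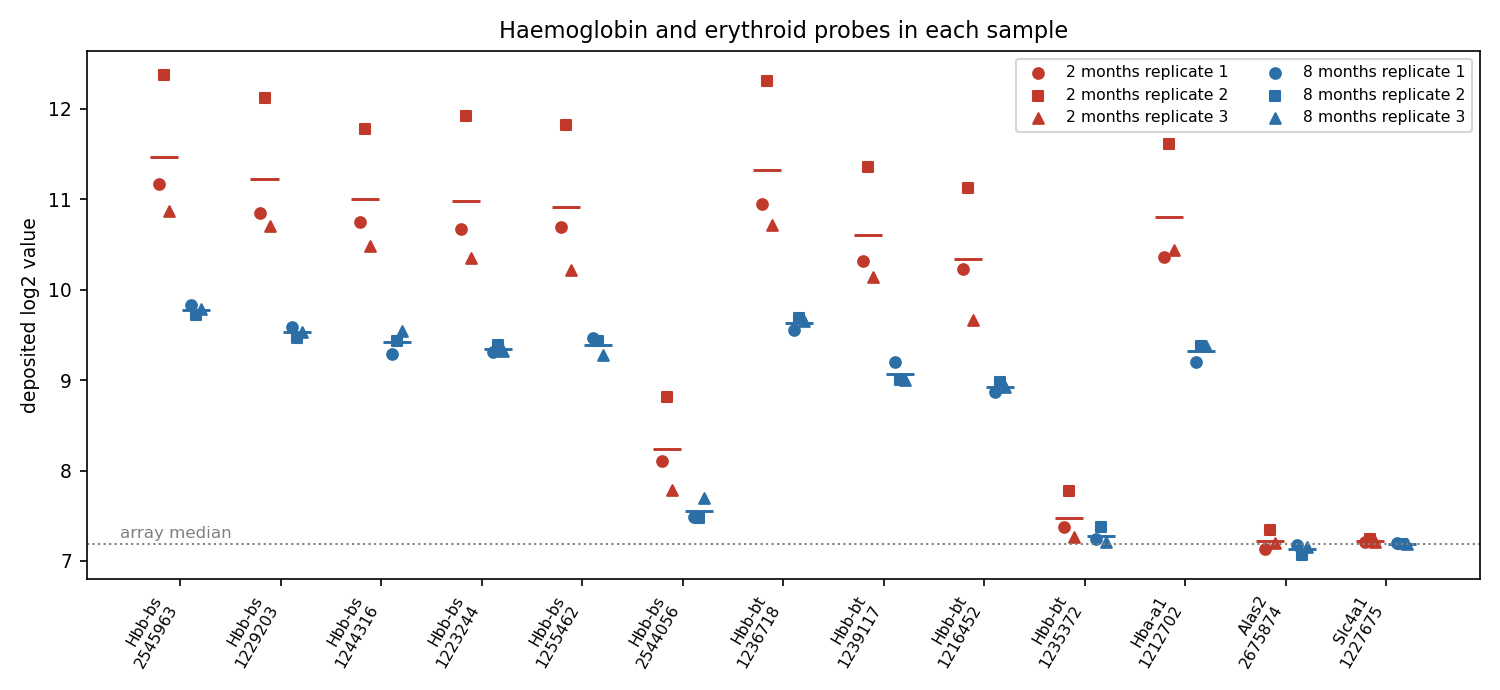
Deposited log2 values (vertical axis) of the 13 haemoglobin and erythroid probes (horizontal axis, gene and the digits of the ILMN probe number) in the 3 samples at 2 months, in red, and the 3 at 8 months, in blue. Symbols stand for replicates, horizontal bars for group means and the dotted line for the array median of 7.19; the 9 bright haemoglobin probes separate the ages, Alas2 and Slc4a1 lie at the median, and 1 Hbb-bt probe lies a little above it.

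Among the 9 bright haemoglobin probes, the size of the difference varied more between the samples at 2 months than between the probes. This leaves out the 2 dim haemoglobin probes, whose changes were −0.69 and −0.20. Over the 9 haemoglobin probes above 8 on the log2 scale at 8 months, a line drawn after the values were seen, replicate 2 exceeded the 8 month mean by 2.20 to 2.67, or 5.37-fold at the median probe. Replicate 1 exceeded it by 1.04 to 1.39, or 2.48-fold at the median probe. Replicate 3 exceeded it by 0.741 to 1.17, or 2.10-fold. The order was replicate 2, then 1, then 3 at 8 of the 9 probes; at Hba-a1 replicates 1 and 3 changed places.

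At 8 months the same probes lay close together. Their SD over the 3 samples was 0.0425 to 0.125, against 0.659 to 0.857 at 2 months, which made the 2 month SD 5.46 to 19.6 times the other. The median SD over all kept probes was 0.0687 at 2 months and 0.0632 at 8 months, so the wide spread at 2 months belonged to few probes: 67 of 22458 had an SD at least as large as the lowest of these 9. On the arrays the 9 probes stood on average at the 94.5th to 97.7th percentile at 2 months and at the 87.1st to 92.4th at 8 months, so globin RNA was still well above background in every 8 month sample.

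**Figure D2:**
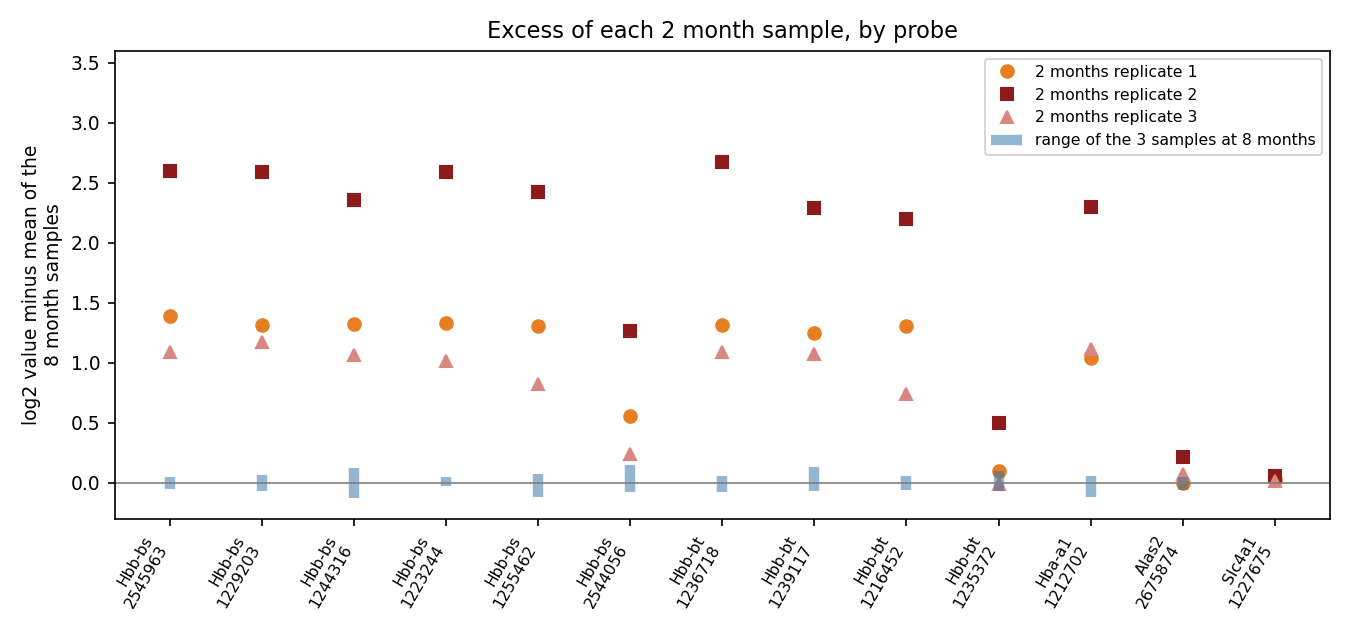
Log2 value of each 2 month sample minus the mean of the 8 month samples (vertical axis) for each member probe (horizontal axis). Blue bars span the 3 samples at 8 months; replicate 2 lies 2.20 to 2.67 above their mean at the bright haemoglobin probes, and replicates 1 and 3 lie 0.741 to 1.39 above it.

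Read against all probes, 11 of the 12 kept member probes had ages that did not overlap and were higher at 2 months, where 6.61% of kept probes did and 7.08% were separated the other way. Over all probes, filtered or not, the share was 5.72%, against 11 of the 13 member probes. The count among kept probes depends in part on the filter. Slc4a1 passed it at the array median, with its higher values at 2 months, and Alas2, whose ages overlapped, did not pass. All 12 kept member probes had a change below 0, as 48.7% of kept probes did. An unadjusted p below 0.05 (limma) was reached by 10 of them, all lower at 8 months, against 4.44% of kept probes lower and 4.62% higher. A change of −1 or lower was found for 28 kept probes, 0.125% of them, and 9 of these 28 were the bright haemoglobin probes. The probes are not independent, since 10 of the 11 haemoglobin probes measure 2 beta globin genes that share much of their sequence, and all of them read the same 6 RNA pools. The exact two-sided permutation test over the 6 samples gave p = 0.1 for each of the 9 bright probes, the smallest value that 3 against 3 allows.

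Both the size and the error of the difference depended on replicate 2 at 2 months. Without it the bright probes had changes of −1.24 to −1.02 in place of −1.69 to −1.42, and their standard errors went from 0.290 to 0.372 down to 0.0675 to 0.153. In that comparison 7 of the 12 tested member probes were called lower (limma, adjusted p = 0.0109 for the lowest). On the whole array 9 probes were called lower, or 0.0401% of those tested. Replicate 2 was singled out on the member values themselves, and leaving it out removes much of their spread. These calls are therefore no separate support for the difference. The 7 were Hba-a1 ILMN_1212702, 4 probes of Hbb-bs and 2 of Hbb-bt. Leaving out any other sample called none of them, with changes of the bright probes from −1.99 to −1.39. A stricter filter, above the 75th percentile of the array, called all 9 bright probes with all 6 samples (limma, adjusted p = 0.0134 to 0.0345), where 0.411% of the probes kept by it were called lower.

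**Figure D3:**
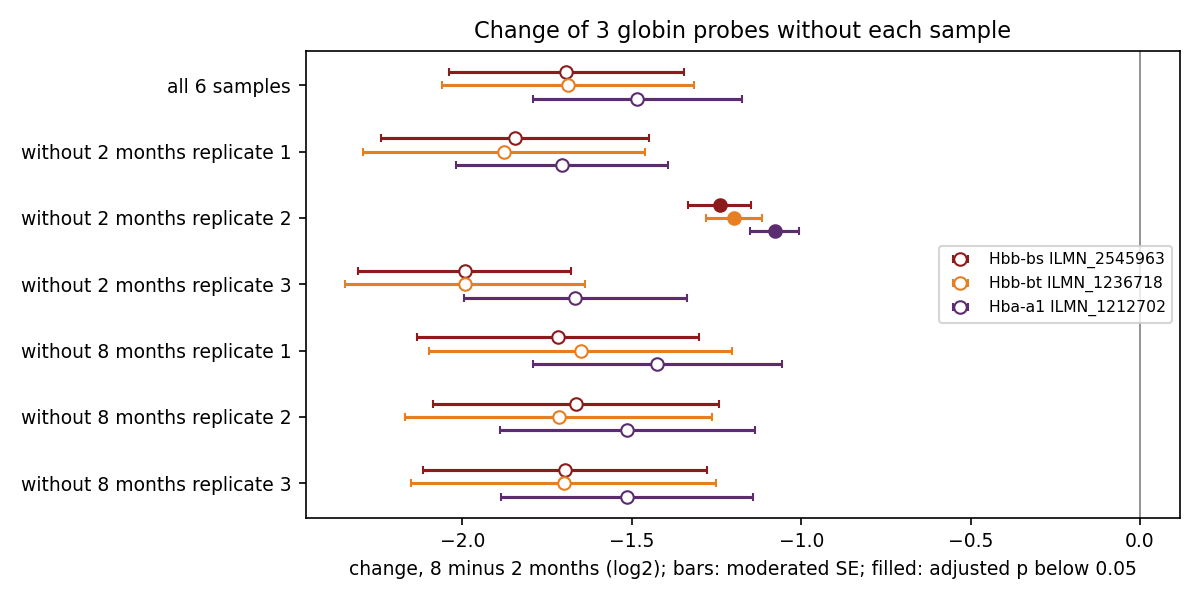
Change from 2 to 8 months on the log2 scale (horizontal axis) of the brightest probe of Hbb-bs and Hbb-bt and the probe of Hba-a1, with all 6 samples and without each sample in turn (vertical axis). Bars are moderated standard errors and filled points have an adjusted p below 0.05; without replicate 2 at 2 months the changes are smaller, −1.24, −1.20 and −1.08, and their errors are the smallest.

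Alpha and beta globin differed in their change by less than the spread between samples. Hba-a1 had a change of −1.48 and the 8 bright beta globin probes a mean change of −1.60, a difference of 0.113. Within arrays, Hba-a1 minus the mean of those beta globin probes was −0.341, −0.233 and 0.0465 at 2 months and −0.184, −0.00654 and 0.00303 at 8 months. The ages overlapped (exact two-sided permutation p = 0.5, n = 3 per age). The 5 bright Hbb-bs probes had a mean change of −1.63 and the 3 bright Hbb-bt probes one of −1.55. Hbb-bs minus Hbb-bt within arrays was 0.329, 0.408 and 0.352 at 2 months and 0.292, 0.264 and 0.297 at 8 months, which did not overlap (exact two-sided permutation p = 0.1, the smallest possible). With sequences this alike, probes of either gene may read both, and the split between them is uncertain.

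The ages overlapped for the other measured genes of the globin family. Of 13 listed, 9 had a probe and 3 passed the filter. Cygb, a globin of many tissues, was at 11.86 ± 0.162 at 2 months and 11.97 ± 0.127 at 8 months, and Ngb, a globin of neurons, at 7.34 ± 0.0513 and 7.36 ± 0.0840. Mb, the oxygen store of muscle, was at 7.46, 8.74 and 7.26 at 2 months and 7.36, 7.40 and 7.21 at 8 months, with the high value in replicate 2. The embryonic genes Hba-x, Hbb-y and Hbb-bh1, the theta globin genes Hbq1a and Hbq1b, and Hbb-b2, an adult beta globin gene of another mouse haplotype, stayed between 7.02 and 7.23 in every sample at their brightest probe. Over the 9 genes, the mean level of the list was 7.68 to 7.87 at 2 months and 7.69 to 7.73 at 8 months.

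Genes that red cell precursors use, taken from lists chosen for this purpose, gave median changes near 0. None of their kept probes was called in either direction (limma), and over all 12046 genes with a kept probe the median change was 0.000482, with 49.8% lower at 8 months and 7.59% lower with no overlap. Of 18 measured genes of haem synthesis and iron supply 17 passed the filter, 12 lower and 5 higher at 8 months, with a median change of −0.05. Tfrc, the transferrin receptor that brings iron into cells, read 10.63, 10.81 and 10.78 at 2 months and 10.32, 10.43 and 10.10 at 8 months, with no overlap and a change of −0.46 (SE 0.0917, limma adjusted p = 0.175). Many cells other than red cells use this receptor. Glrx5, of iron-sulfur cluster assembly, and Urod, an enzyme late in haem synthesis, had changes of −0.23 and −0.20 with ages that overlapped. The list's mean level was 8.98 to 9.07 at 2 months and 8.96 to 9.00 at 8 months.

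Of 17 measured genes of the red cell membrane and its skeleton 14 passed, 7 lower and 7 higher, with a median change of −0.02. Ermap, Icam4, Gypc, Rhag, Epb42, Kel and Rhd, several of them blood group or red cell surface proteins, were below 7.5 on every array. The largest changes were those of Cd59a, which guards cells against complement, at −0.29, the water channel Aqp1 at −0.22, and the nucleoside transporter Slc29a1 at −0.21. Ages overlapped for Aqp1 but not for Cd59a and Slc29a1. The regulators and maturation genes of red cells gave 11 kept of 18 measured, 3 lower and 8 higher, with a median change of 0.03. With no overlap 3 of the 11 were higher at 8 months and 0 lower. Over the array 7.08% of kept probes were higher with no overlap, a share of probes and not of genes. The largest changes were those of Ube2o, −0.15 with overlap, and of Xpo7 and Fbxo7, 0.14 and 0.12 without it. The transcription factors Klf1, Gata1, Gfi1b, Nfe2 and Tal1 were among 12 genes of this list below 7.5 on every array. Genes that clear free haemoglobin and haem had a median change of 0.03 over 8 kept of 11 measured. Hmox1, the inducible haem oxygenase that breaks haem down, was at 7.32, 7.32 and 7.21 at 2 months and 7.46, 7.45 and 7.33 at 8 months, a change of 0.13 (SE 0.0554, limma adjusted p = 0.572). Its ages did not overlap, but all 6 values were near background.

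Most listed genes of other blood cells were below 7.5 on every array, and the brighter ones had ages that overlapped, apart from S100a8. Of 11 measured platelet genes 9 stayed below 7.5 on every array, among them Pf4 and Ppbp, which code for chemokines of platelet granules. Of the others, Gp1bb, part of the platelet receptor for von Willebrand factor, lay between 8.16 and 8.34, and F2rl3, a thrombin receptor, between 7.46 and 7.73. The list's mean level was 7.30 to 7.31 at 2 months and 7.32 to 7.35 at 8 months. Of 11 measured lymphocyte genes 10 stayed below 7.5, with mean levels of 7.37 to 7.40 at both ages, and the exception was Cd8b1, at 9.83 ± 0.0535 and 9.79 ± 0.152. Of 15 neutrophil genes 11 stayed below 7.5, and the mean level was 7.40 to 7.56 at 2 months and 7.39 to 7.42 at 8 months. S100a8, a calcium-binding protein of neutrophil granules and cytosol, read 7.55, 7.68 and 7.41 at 2 months and 7.27, 7.37 and 7.32 at 8 months. It had no overlap and the same order of 2 month samples as the beta globin probes, with a change of −0.23 (SE 0.0724, limma adjusted p = 0.377), while its partner S100a9 had a change of −0.03. Stfa1, a protease inhibitor, read 7.87, 10.06 and 9.00 at 2 months and 8.43, 8.29 and 7.66 at 8 months. Mmp9, a protease that many cells make, lay between 9.24 and 9.51, and Ltf, the iron-binding protein lactoferrin, between 7.24 and 7.55 but for 8.08 in replicate 3 at 8 months.

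Endothelial genes were split in direction, with a median change near 0. Of 17 kept endothelial genes 8 were lower and 9 higher at 8 months, with a median change of 0.000365, which was −0.09 without replicate 1 at 2 months. The list's mean level was 8.15 to 8.36 at 2 months and 8.28 to 8.34 at 8 months. Plvap, a protein of fenestrated endothelium, had its higher values at 8 months, at 9.02, 9.32 and 8.98 against 8.75, 8.71 and 8.86 at 2 months, a change of 0.34 (SE 0.0941, limma adjusted p = 0.307). The pericyte and smooth muscle list had 8 of 10 kept genes lower and a median change of −0.07. Vtn, which codes for the adhesion protein vitronectin, read 8.24, 8.78 and 8.37 against 7.74, 7.61 and 7.60, a change of −0.81 (SE 0.130, limma adjusted p = 0.113). Its 2 month order was replicate 2, 3, 1, as for Hba-a1 and unlike the beta globin probes. Acta2, the smooth muscle actin, read 9.12, 10.23 and 10.43 against 9.65, 9.45 and 9.08, with overlap and a change of −0.53 (SE 0.330). In pooled tissue, fewer red cells, less globin RNA per red cell and less globin RNA from other cells cannot be told apart. The source of the globin RNA was not tested.

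The muscle and pigment cell lists, of tissues outside the neural retina, also had their highest mean level in replicate 2 at 2 months. Taken singly, 11 of 14 muscle genes and 13 of 16 pigment genes were highest in it. The neutrophil, pericyte and smooth muscle, haem synthesis and other globin lists were highest there too, at 7.56, 7.68, 9.07 and 7.87. They had 5 of 15, 5 of 13, 6 of 18 and 2 of 9 genes highest in it. The share of all probes highest in that sample was not computed. The skeletal muscle list was lower at 8 months for 10 of 10 kept genes, with a median change of −0.47. That median was −0.18 without replicate 2 at 2 months, −0.71 without replicate 3 at 2 months and −0.20 with no filter. Its mean level was 7.92, 8.43 and 7.58 at 2 months against 7.59, 7.65 and 7.54 at 8 months. The brightest gene of the list, Pvalb, was highest in replicate 3 at 2 months, unlike the list. It read 11.56, 11.62 and 11.71 at 2 months, and its change was −0.19. Myl1, a myosin light chain of fast muscle, read 9.32, 11.14 and 7.31 at 2 months and 7.48, 7.52 and 7.14 at 8 months, a change of −1.87 with a wide error and overlapping ages (SE 0.830, limma adjusted p = 0.577). Atp2a1, the calcium pump of fast muscle, had a change of −0.77 and also overlapped. The muscle list and the beta globin probes shared their order over the 2 month samples, but in replicate 3 the muscle list lay within the 8 month range while every bright haemoglobin probe lay above it. The pigment epithelium and melanocyte list had 15 of 16 kept genes lower and a median change of −0.38, with mean levels of 8.85, 9.39 and 8.97 at 2 months and 8.86, 8.79 and 8.35 at 8 months. Its median was −0.19 without replicate 2 at 2 months and −0.12 without replicate 3 at 8 months. The pigment list's mean level overlapped between the ages. Dct, an enzyme of melanin synthesis, read 10.44, 12.28 and 10.95 at 2 months and 10.41, 10.23 and 9.13 at 8 months, with no overlap and a change of −1.30 (SE 0.507) that did not pass the adjusted threshold. Rdh5, a retinol dehydrogenase of the pigment epithelium, had no overlap either and a change of −0.80, and Tyrp1 had one of −0.98 with overlap. In these lists Actn3, Tnnt3, Ttn, Ckm, Myh1 and Myh4 for muscle and Best1, Mitf, Slc45a2, Slc26a7 and Tyr for pigment cells were below 7.5 on every array. The part of muscle and pigment cell RNA in the globin difference was not tested. The neural retina list had a median change of −0.05 over 13 genes, with mean levels of 10.77 to 10.78 at 2 months and 10.70 to 10.74 at 8 months.

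**Figure D4:**
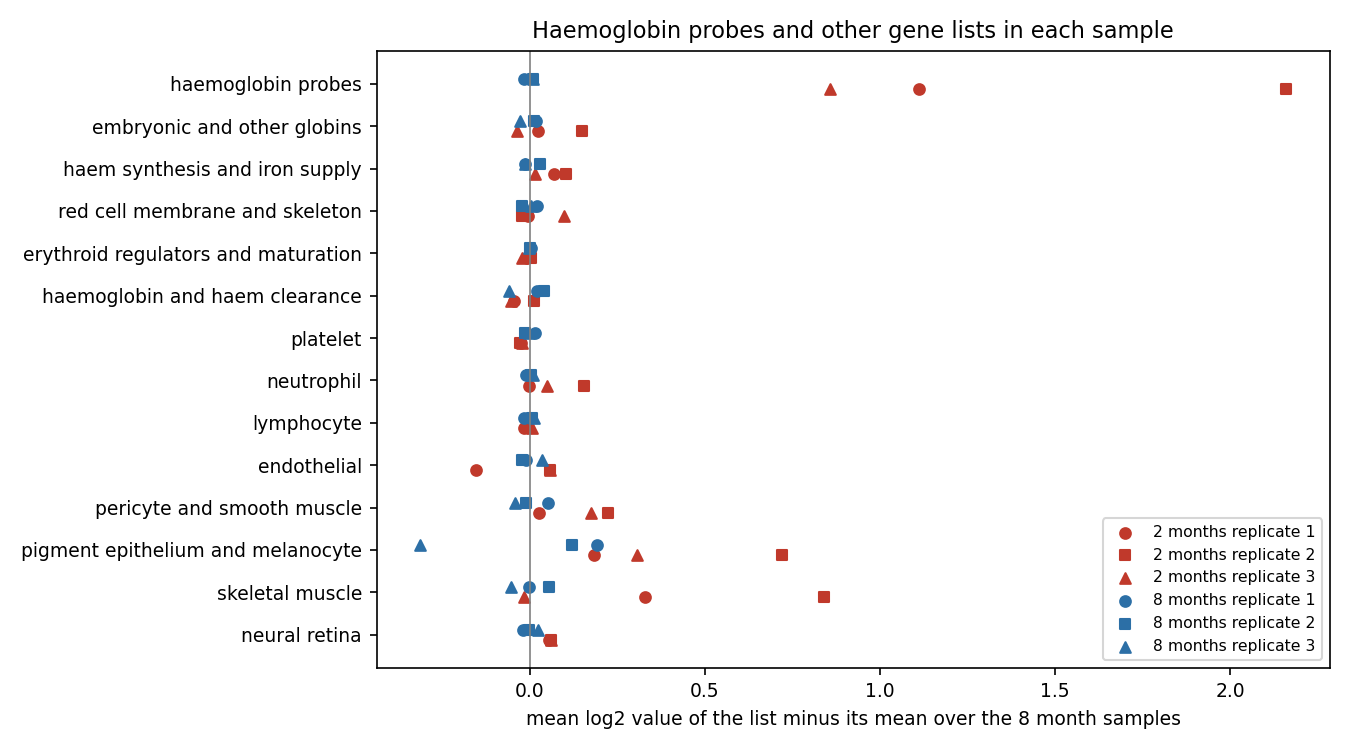
Mean log2 value of the 11 haemoglobin probes and of each other gene list (rows), minus its mean over the 8 month samples (horizontal axis). The haemoglobin row averages all 11 probes. Each other row averages the brightest probe of each measured gene, genes close to background included. Red symbols are the 3 samples at 2 months and blue symbols the 3 at 8 months. The haemoglobin probes lie far to the right at 2 months. Several lists are highest in replicate 2, the muscle and pigment lists by the most, and the lists apart from these lie nearer to 0.

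The genes whose profile over the 6 samples lay nearest to globin were ranked among 12042 other genes by the root mean square distance between centred profiles. The distance of a flat profile would be 0.796, and that of the haemoglobin probes to their own mean had a median of 0.158. Nearest was Pde6g ILMN_2590508, the inhibitory subunit of rod phosphodiesterase, at a distance of 0.281, with 9.79, 10.14 and 9.52 at 2 months and 8.58, 8.66 and 8.14 at 8 months. Next came Tyrp1 ILMN_1228521, an enzyme of melanin synthesis, at 0.337, and Rtbdn ILMN_2826826, a riboflavin-binding protein of photoreceptors, at 0.344. Gja1 ILMN_1244291, a gap junction protein, followed at 0.353 and read 10.03, 12.05 and 9.75 against 9.56, 9.20 and 9.26. Last of the 5 was Arr3 ILMN_2717844, the cone arrestin, at 0.365, which fell by 1.31 (SE 0.0965, limma adjusted p = 0.0120) and whose 2 month values of 8.68, 8.93 and 8.82 were close together. All 5 lay farther from the globin mean than the median haemoglobin probe did. The haemoglobin probes make up that mean, so their closeness to it is built in. The measure also favours any gene with a large difference between the ages.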

How the data were processed

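RNA from 6 pools of central retina, 3 per age, was measured on Illumina bead arrays after column extraction and biotin labelling, per the labels' protocols. The deposited table holds log2 values, 1 per probe and sample, read as log2 from their range, and its sorted columns agree within 0.00307, as quantile normalization would leave them. The software and background correction are not stated in the sources at hand. Folds assume a plain log2, which could not be checked. Changes of dim probes are compressed. Groups and replicate numbers came from the sample titles.

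Symbols came from GEO's platform annotation, and 34885 probes had 1 symbol, 18 several and 10378 none. Every probe was fitted in R 4.3.3 by lmFit and eBayes of limma 3.58.1 (no covariate, 4 residual and 3.20 prior degrees of freedom), 8 minus 2 months, with Benjamini-Hochberg adjustment over the 22458 probes above the 50th percentile of their array on at least 3 arrays and a threshold of 0.05. The test was checked on simulated data. Alternatives changed the normalization, filter, features, weights, prior, replicate block or samples. List medians and directions used the brightest kept probe of each gene. List mean levels, counts below 7.5 and counts highest in a sample used the brightest probe of every measured gene, kept or not. The lists were not tested. Named genes were all member probes, up to 3 kept genes of each list with the largest change, and the 5 genes nearest in profile. S100a9, Gp1bb, Mmp9, Pvalb and the genes named as below 7.5 or as embryonic or theta globins were added after their values were seen. Members and lists were chosen with earlier results of these data known.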

Additional observations from a re-analysis of the deposited data

How the results depend on the processing

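The haemoglobin and erythroid probes that each of the 16 alternatives tested, 12 in most, kept their direction: 166 of 182 values kept their side of the threshold and 16 passed it that had not, 9 with the stricter filter and 7 without replicate 2 at 2 months. The count of member probes called lower was 0 with all samples and 9 with the stricter filter, and 0 to 7 when 1 sample was left out; none was called higher in any fit. Their median change, −1.52, went from −1.77 to −1.08 when 1 sample was left out, the smallest being that without replicate 2 at 2 months. Over the whole array 3 probes were called lower and 8 higher. The counts were 5 lower with no filter, 47 lower and 48 higher with the stricter filter, 8 and 19 with 1 probe per gene, and 74 and 67 with a trended robust prior. That prior called more probes over the array but no member. With it the bright probes had larger standard errors, 0.374 to 0.484. Their adjusted p (limma) was 0.383 to 0.491, against 0.157 to 0.244 in the main fit. Leaving out 1 sample gave 0 to 27 lower and 3 to 13 higher. Quantile normalization again, median centring, cyclic loess, array weights and a filter on the mean changed no count by over 1.5 times. With the replicate number as a replicate block 13 probes were called lower and no member. Same-numbered samples deviated together at correlations of 0.0537, 0.128 and 0.157, each sample being closest to its own number, a hint from the data and not from the design. List medians were recomputed with no filter and without each sample: 76 of 91 moved by less than the spread between replicates. The median was not computed with 1 probe per gene. The causes were not tested. The stricter filter tested fewer probes, 11444 in place of 22458. The standard errors of the bright probes were also smaller with it, 0.238 to 0.300 against 0.290 to 0.372. Signal over background limits Alas2, Slc4a1 and the dim globin probes.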
